A study of Homo sapiens with 5 samples.

Results

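The genes described here are 9 genes of the chromosome 15q11-q13 imprinted region, chosen by symbol: NIPA1, MAGEL2, NDN, SNRPN, UBE3A, ATP10A, GABRA5, GABRG3 and HERC2. They were selected on their counts over all 5 libraries, as neighbours whose RNA moved in opposite directions between 2 drug-resistant clones. Of the 30476 genes in the deposited count table, 8 were members. MAGEL2 matched no row of the table and was not analysed here. Of the 8, 4 averaged 100 or more normalized counts (SNRPN, UBE3A, ATP10A and HERC2). A normalized count is the deposited count divided by the size factor of its library.

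Strand-specific total RNA libraries were made from TOV21G, an ARID1A-mutated human ovarian clear cell carcinoma line. The EZH2 inhibitor-resistant (EIR) clones 3 and 4 were grown out of TOV21G cells kept in rising concentrations of GSK126, an inhibitor of the H3K27 methyltransferase EZH2. The steps were 5, 10, 15 and 20 μM, and clones were taken once the cells were stable in the last of them. The 5 libraries were 1 of untreated parental cells, which carry the ARID1A mutation as the clones do, 1 of each untreated clone and 1 of each clone treated with GSK126. Each treatment thus had 2 clones with 1 library each, so a p-value measures only the spread between these libraries, and the 1 parental library gives no spread of its own. The libraries held 25479238 to 30764963 counts, with 15588 to 16432 genes at 10 or more counts. The epithelial and Müllerian markers PAX8, KRT8 and KRT18 were present in every library, from 3031 for PAX8 in untreated clone 4 to 18015 for KRT18 in the same library. EPCAM was at 398 counts in parental cells and 426 and 498 in clone 3, but 0 and 1 in clone 4. Of the neuronal genes, TUBB3 was present throughout (3625 to 10326 counts), and RBFOX3, SNAP25, SYT1 and MAP2 had 0 to 164 counts. SYT1 was at 0 in the parental library.

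In 15q11-q13, several genes are transcribed from only 1 of the parental chromosomes, a pattern set by DNA methylation at an imprinting centre near SNRPN. SNRPN, NDN and MAGEL2 are expressed from the paternal copy, UBE3A from the maternal copy in neurons, and ATP10A has been described as maternally expressed in some tissues. NIPA1 and HERC2 flank the imprinted genes and are expressed from both copies. Loss of the paternal or the maternal contribution causes Prader-Willi or Angelman syndrome. The deposited counts do not separate the parental copies.

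The gene whose RNA was lost in 1 clone, ATP10A, lies beside UBE3A, which was not lost, on the same strand. The upstream sequences of both are shown because this pair carries the contrast between neighbours. Each is the first run of 250 bases upstream of the canonical start that holds no annotated exon of that strand, read 5′ to 3′ along the gene, from GRCh37, with CG dinucleotides in capitals. The ATP10A run is chr15:26108871-26109120 and the UBE3A run chr15:25684199-25684448, both on the minus strand.
ATP10A: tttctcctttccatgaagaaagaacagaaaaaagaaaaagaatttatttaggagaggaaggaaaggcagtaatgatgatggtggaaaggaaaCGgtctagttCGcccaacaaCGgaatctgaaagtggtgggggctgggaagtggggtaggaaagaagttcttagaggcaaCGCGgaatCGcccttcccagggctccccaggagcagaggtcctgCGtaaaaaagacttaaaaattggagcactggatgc
UBE3A: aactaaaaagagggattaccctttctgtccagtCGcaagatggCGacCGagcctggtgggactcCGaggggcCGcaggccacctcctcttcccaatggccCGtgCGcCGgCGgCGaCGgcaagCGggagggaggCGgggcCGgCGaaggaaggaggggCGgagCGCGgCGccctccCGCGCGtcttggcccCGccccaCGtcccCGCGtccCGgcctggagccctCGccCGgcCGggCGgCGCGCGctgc
The ATP10A run held 7 CG dinucleotides and the UBE3A run 34. The same kind of run held at least 7 in 72.3% and at least 34 in 7.88% of 19709 coding genes. The ATP10A run lies 396 bases away from the canonical start, because exons of other ATP10A transcripts lie between. It is inside the annotated bounds of ATP10A, while the UBE3A run is just outside those of UBE3A, so their positions are unlike. The 250 bases directly before the canonical start held 31 CG in ATP10A and 37 in UBE3A, and 15.4% and 5.82% of 19874 genes held as many. By that count SNRPN had 12, MAGEL2 8, GABRA5 16, GABRG3 20, HERC2 29, NDN 30 and NIPA1 30, against a median of 18. Methylation of these bases was not measured in these libraries.

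ATP10A (ENSG00000206190, chr15:25922420-26110331 in GRCh37, minus strand) encodes a flippase, a P4-type ATPase that moves phospholipids between the leaflets of a membrane. It had 261 counts in parental cells, 601 in untreated and 688 in GSK126-treated clone 3, and 0 in both libraries of clone 4. Clone 3 was therefore above parental cells in both libraries, while clone 4 had no read assigned, with no overlap between any of the groups. Clone 3 averaged 618 ± 87.3 normalized counts (SD, n = 2), which was 2.35-fold the 263 of the parental library. Taking 3 counts per library as the most a count of 0 allows, the level was at least 199-fold higher in clone 3 than in clone 4 and at least 84.4-fold higher in parental cells than in clone 4. These floors cover counting error only. Among the 11564 genes averaging 100 or more normalized counts, 2 had a more negative log2 difference between clone 4 and clone 3 than ATP10A. These values chose the gene, so no p-value is given for them, and nothing is read from the calls of members listed below.

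UBE3A (ENSG00000114062, chr15:25578875-25684198, minus strand) encodes the E3 ubiquitin ligase E6AP. It had 5455 counts in parental cells, 6471 and 6834 in untreated and treated clone 3, and 8059 and 6400 in untreated and treated clone 4. After normalization all 4 EIR libraries (5991 to 8198) lay above the parental 5494, and the libraries of the 2 clones overlapped. The mean log2 difference from parental cells was 0.21 in clone 3 and 0.44 in clone 4, and that between clone 4 and clone 3 was 0.23. After subtracting the median difference of genes of like GC content, the difference turned to -0.10 in clone 3 and fell to 0.10 in clone 4. UBE3A thus did not share the loss of its neighbour. UBE3A lies opposite the 3′ part of the long non-coding RNA SNHG14, and whether the counting used strand was not stated, so reads of the overlap cannot be assigned with certainty.

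SNRPN (ENSG00000128739, chr15:25068784-25223870, plus strand) encodes SmN, a protein of the small nuclear ribonucleoproteins that splice pre-mRNA. Its counts were 826 in parental cells, 498 and 647 in untreated and treated clone 3, and 510 and 506 in untreated and treated clone 4. All 4 EIR libraries lay below parental cells, at 461 to 639 against 832 normalized counts, and the clones overlapped. The mean log2 difference from parental cells was -0.62 in clone 3 and -0.66 in clone 4, and the clones differed by -0.04. SNRPN shares its transcript with SNURF, an upstream reading frame counted as a gene of its own, and made up 19.1% of their sum. For the sum, the differences were -0.41 in clone 3 and -0.62 in clone 4, from 4098 normalized counts in parental cells to 2534 to 3176 in EIR cells.

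HERC2 (ENSG00000128731, chr15:28356186-28567325, minus strand) encodes a very large HECT-domain ubiquitin ligase that takes part in DNA repair and binds UBE3A. It had 4226 counts in parental cells, 4042 and 3848 in untreated and treated clone 3, and 3554 and 4436 in untreated and treated clone 4. The parental level, 4256 normalized counts, lay inside the EIR range of 3615 to 4693. The mean log2 differences from parental cells were -0.17 in clone 3 and -0.05 in clone 4, and both turned positive after the GC adjustment (0.04 and 0.18). The clone 4 difference was also positive with total count scaling (0.03) and without its untreated library (0.14). Near-identical HERC2 pseudogenes could take reads from it. Summed with 8 of them, of which HERC2 made up 78.2%, the differences were -0.10 and 0.05.

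NIPA1 (ENSG00000170113, chr15:23043279-23100005, minus strand) encodes a magnesium transporter at the proximal edge of the region. It had 55 counts in parental cells, 43 and 29 in untreated and treated clone 3, and 38 and 31 in clone 4. The parental library was highest and the clones overlapped, with mean log2 differences from parental cells of -0.71 and -0.63. NIPA1 averaged 39.1 normalized counts, so single reads weigh on these values.

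The remaining members were at or near 0. NDN (ENSG00000182636, chr15:23930547-23932452), which encodes the MAGE-family growth suppressor necdin, had 4 counts in untreated clone 3, 1 in treated clone 4 and 0 in the other libraries. GABRA5 (ENSG00000186297, chr15:27112058-27194355), the alpha-5 subunit of the GABA-A receptor chloride channel, had 0 counts in parental cells, 3 and 1 in clone 3, and 0 and 1 in clone 4. GABRG3 (ENSG00000182256, chr15:27216328-27787130), the gamma-3 subunit, had 2 counts in each library of clone 3 and 0 elsewhere. A difference between clones was not detectable at this depth for any of them, and no fold is given.

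**Figure D1:**
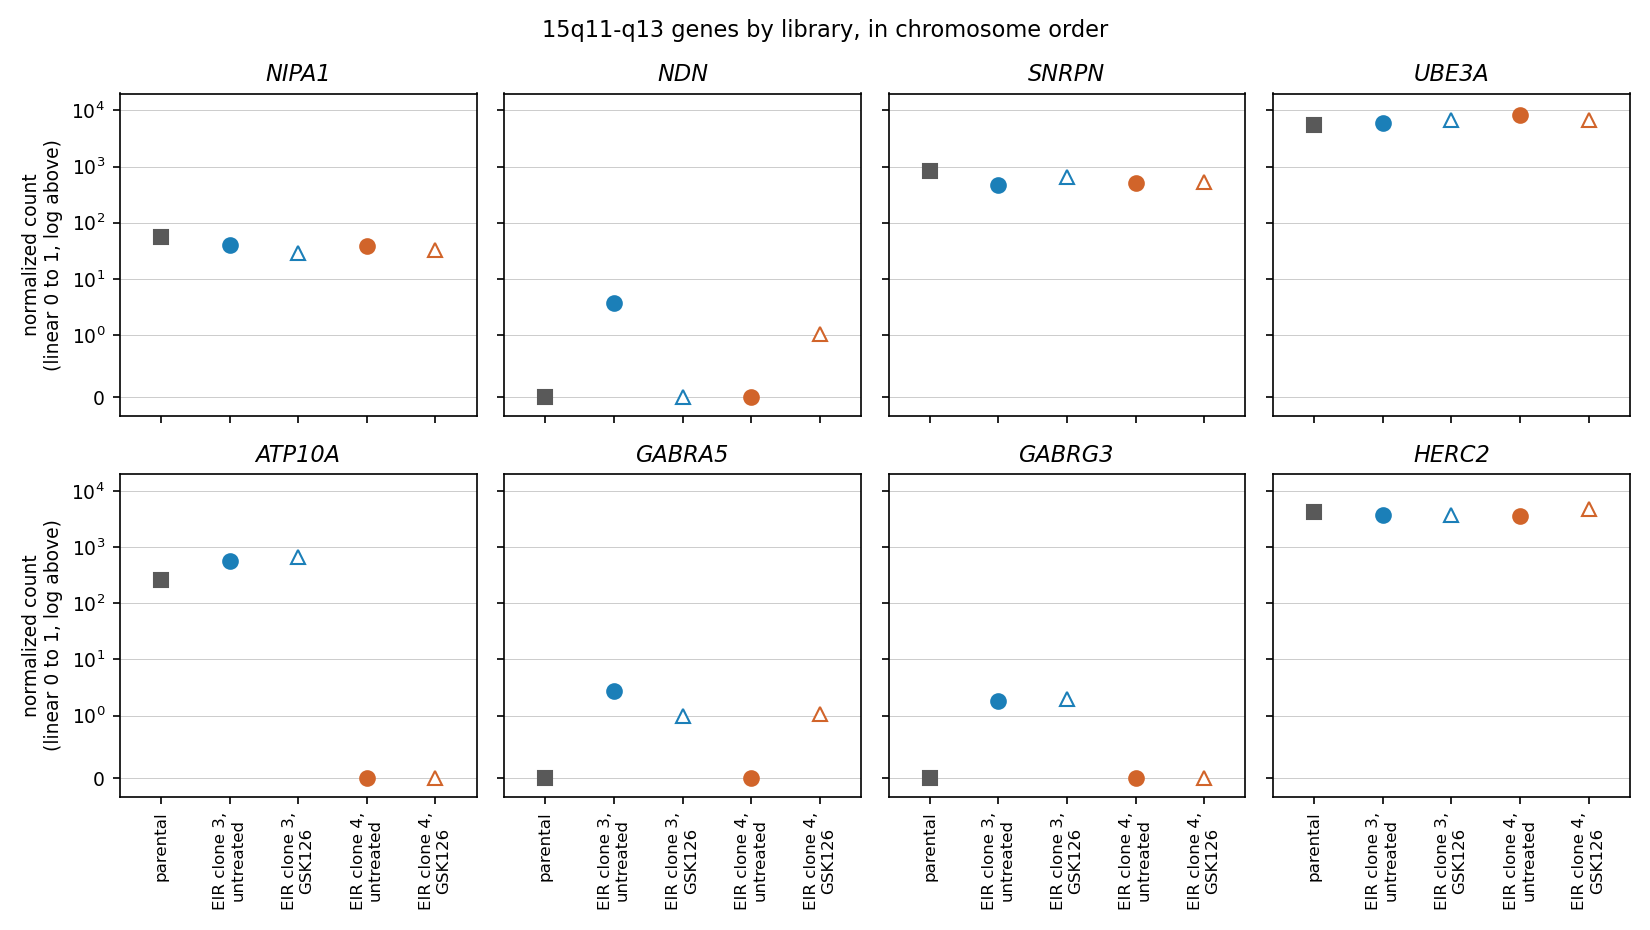
Normalized counts of the 8 genes in each of the 5 libraries, in chromosome order; the vertical axis is linear from 0 to 1 and logarithmic above, each symbol is 1 library, and open triangles are GSK126-treated. ATP10A stands at 263 in parental cells, above that in clone 3 and at 0 in both clone 4 libraries, while SNRPN, UBE3A, HERC2 and NIPA1 show no such gap between clones.

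The members also differed in level, compared as normalized counts per kilobase of the canonical transcript. UBE3A was highest, at 629 in parental cells and 686 to 939 in EIR cells. SNRPN followed with 567 in parental cells and 314 to 436 in EIR cells, then HERC2 with 277 and 235 to 305. The ranges of these 3 genes over the 5 libraries did not overlap. The place of SNRPN rests on how reads were split with SNURF, since their sum per kilobase of the SNRPN transcript was 1726 to 2792, above UBE3A in every library. ATP10A reached 49.0 in parental cells and 104 and 127 in clone 3, below HERC2 in every library. NIPA1 was between 4.37 and 8.45, so that it lay under ATP10A in parental cells and clone 3 and above it in clone 4.

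The description of neighbours moving in opposite directions held for ATP10A, 1 of the 8 members, with median-of-ratios scaling against the parental library. For SNRPN, NIPA1 and HERC2 the mean differences were negative in both clones, and for UBE3A positive in both. The signs of small differences depended on the scaling. UBE3A was at -0.10 and 0.10 after the GC adjustment, HERC2 at -0.11 and 0.03 with total count scaling, and the sum of HERC2 and its pseudogenes at -0.10 and 0.05, in clone 3 and clone 4. By DESeq2, with Benjamini-Hochberg adjusted p under 0.05 over all genes, 0 members were called higher and 1 lower (ATP10A) of the 5 with an adjusted p in clone 4 against clone 3. The edgeR quasi-likelihood test made the same counts, and 0 members were higher at an unadjusted DESeq2 p under 0.05. Over all genes, 3.3% were called higher and 6.52% lower in that comparison. Clone 3 had 1 member called higher and 0 lower than parental cells (1 lower at an unadjusted p and by edgeR), where 14.7% of all genes were higher and 14.5% lower. Clone 4 had 1 higher and 2 lower (0 higher and 2 lower by edgeR), where 14.7% were higher and 18.3% lower. With both clones pooled against parental cells, 0 members were called by DESeq2 or edgeR (1 lower at an unadjusted p), where 12.4% of all genes were higher and 13.2% lower. Since the same counts chose the members, nothing is read from these numbers, and the comparisons with parental cells share the 1 parental library.

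The treatment of the resistant clones with GSK126 was not used to choose the members and was tested. Normalized SNRPN was 461 in untreated and 639 in treated clone 3, but 519 and 535 in clone 4. ATP10A was at 556 and 680 in clone 3 and at 0 in both libraries of clone 4. UBE3A was at 5991 and 6754 in clone 3 and was lower after treatment in clone 4 (8198 to 6771), so its 2 clones moved in opposite directions. The fitted log2 differences were 0.25 for SNRPN (SE 0.27, 95% interval -0.27 to 0.77), -0.08 for UBE3A (SE 0.24, -0.56 to 0.40), 0.20 for HERC2 (SE 0.22, -0.23 to 0.62) and -0.37 for NIPA1 (SE 0.67, -1.68 to 0.95). For ATP10A the difference in clone 3 alone was 0.29 on the log2 scale, with no replicate. None of the 8 members was called (DESeq2, adjusted p 0.9999 for each), 0 passed an unadjusted p under 0.05, and edgeR called 0. For ATP10A this fit held the difference between the clones in its spread (SE 4.56). NDN, GABRA5 and GABRG3 had at most 4 counts in any library (SE 4.51, 3.54 and 4.79). Nothing is read from the missing calls of these genes. With the clone number as replicate block, which pairs each treated library with the untreated library of its clone, DESeq2 and edgeR again called 0 members. The intervals above leave this pairing out. With the block the DESeq2 SE was 0.25 for SNRPN, 0.18 for UBE3A, 0.18 for HERC2 and 0.77 for NIPA1. Over all genes, 0.00335% were called (1 of 29847), and 4 genes were called with the block. The widest of these intervals was that of NIPA1, the gene with the fewest counts among the 4.

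**Figure D2:**
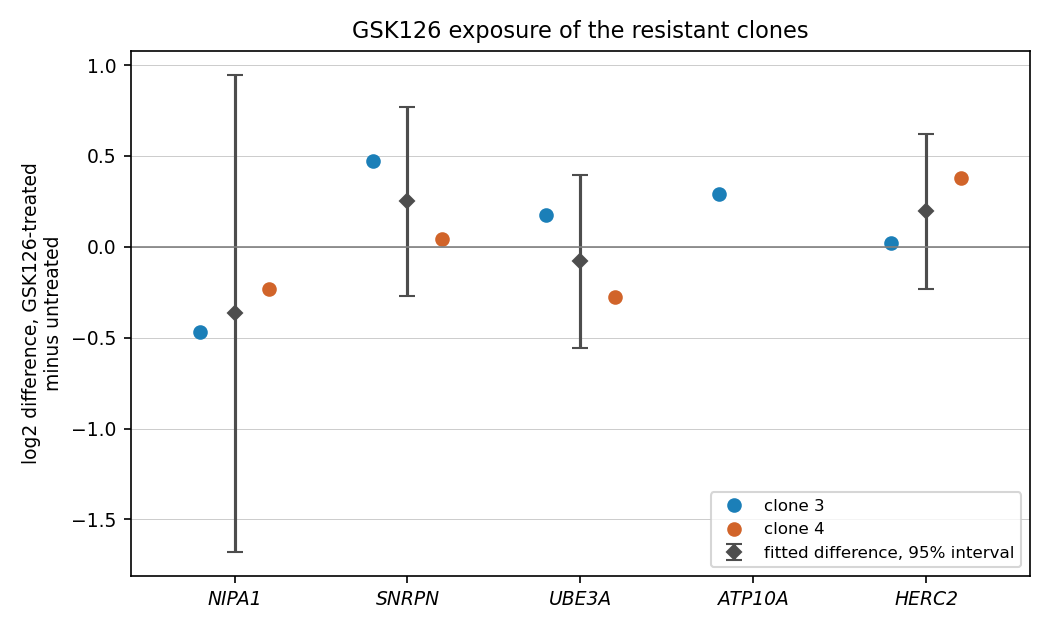
Log2 difference between GSK126-treated and untreated EIR libraries for the 5 members with more than a few counts. Circles are the clones, diamonds with bars the difference fitted without the replicate block, with its 95% interval. ATP10A has only its clone 3 value, since clone 4 was at 0 in both libraries, and every interval drawn includes 0.

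The region around the members was described from 23003706 to 33486915 on chromosome 15 (GRCh37), where 121 other genes with a row are covered here, 58 of them with an adjusted p in clone 4 against clone 3. Not every gene of the region is reported here, so the counts hold for these 121 only. DESeq2 called 5 of them lower and 0 higher in clone 4, where 6.52% of all genes were called lower and 3.3% higher. The 5 among 58 were not tested against that share. At an unadjusted p under 0.05, 3 were higher and 6 lower, and edgeR called 3 higher and 5 lower. The median log2 difference over the 19 that averaged 100 or more normalized counts was -0.08, and -0.03 over all 11564 such genes. The rest of chromosome 15 had a median of -0.004 over 347 genes. The 5 genes were APBA2, KLF13, FMN1, OCA2 and a lncRNA with no symbol, ENSG00000261069; the last 2 were named after their values were seen.

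APBA2 (chr15:29129629-29410518), an adaptor that binds the amyloid precursor protein and Munc18, lies distal to HERC2 and, of the 5, had the largest fall. Its counts were 1714 in parental cells, 541 and 708 in untreated and treated clone 3, and 7 and 9 in clone 4. The groups did not overlap, with parental cells highest. The fitted log2 difference was -6.18 between clone 4 and clone 3 (SE 0.47, DESeq2 adjusted p 6.227e-37). Unlike ATP10A, APBA2 was also lower in clone 3 than in parental cells (-1.52, SE 0.28, adjusted p 1.388e-06). Both differences were called under every alternative run. For clone 4 against clone 3, here and below, the fits with a library left out also dropped the treatment covariate. OCA2 (chr15:28000021-28344461), a melanosomal transport protein next to HERC2, had 18 counts in parental cells, 65 and 74 in clone 3 and 7 and 16 in clone 4. Its fitted difference between clone 4 and clone 3 was -2.57 (SE 0.78, adjusted p 0.0143), but the call was lost without either untreated library or without treated clone 3, up to an adjusted p of 0.357.

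FMN1, an actin-nucleating formin at the distal end, stood at 83.6 normalized counts in parental cells, 239 and 288 in untreated and treated clone 3, and 58.0 and 123 in untreated and treated clone 4. It was called lower in clone 4 than in clone 3 (log2 difference -1.63, SE 0.40, adjusted p 0.000982) and higher in clone 3 than in parental cells (1.65, SE 0.50, adjusted p 0.00465). Both calls were lost without either clone 3 library, up to adjusted p values of 0.189 and 0.204. KLF13, a zinc-finger transcription factor, had 1721 normalized counts in parental cells, 601 and 911 in clone 3 and 197 and 556 in clone 4. Its clone difference (-1.16, SE 0.29, adjusted p 0.00114) was lost without the treatment covariate and without 3 of the 4 EIR libraries, with adjusted p up to 0.9997. ENSG00000261069 (chr15:25332808-25334043) lies inside SNHG14 on the same strand, so the split of reads between them is uncertain. It had 1139 normalized counts in parental cells, 1454 and 1229 in clone 3 and 629 and 531 in clone 4, a clone difference of -1.22 (SE 0.21, adjusted p 3.262e-07) called under all 9 alternatives.

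**Figure D3:**
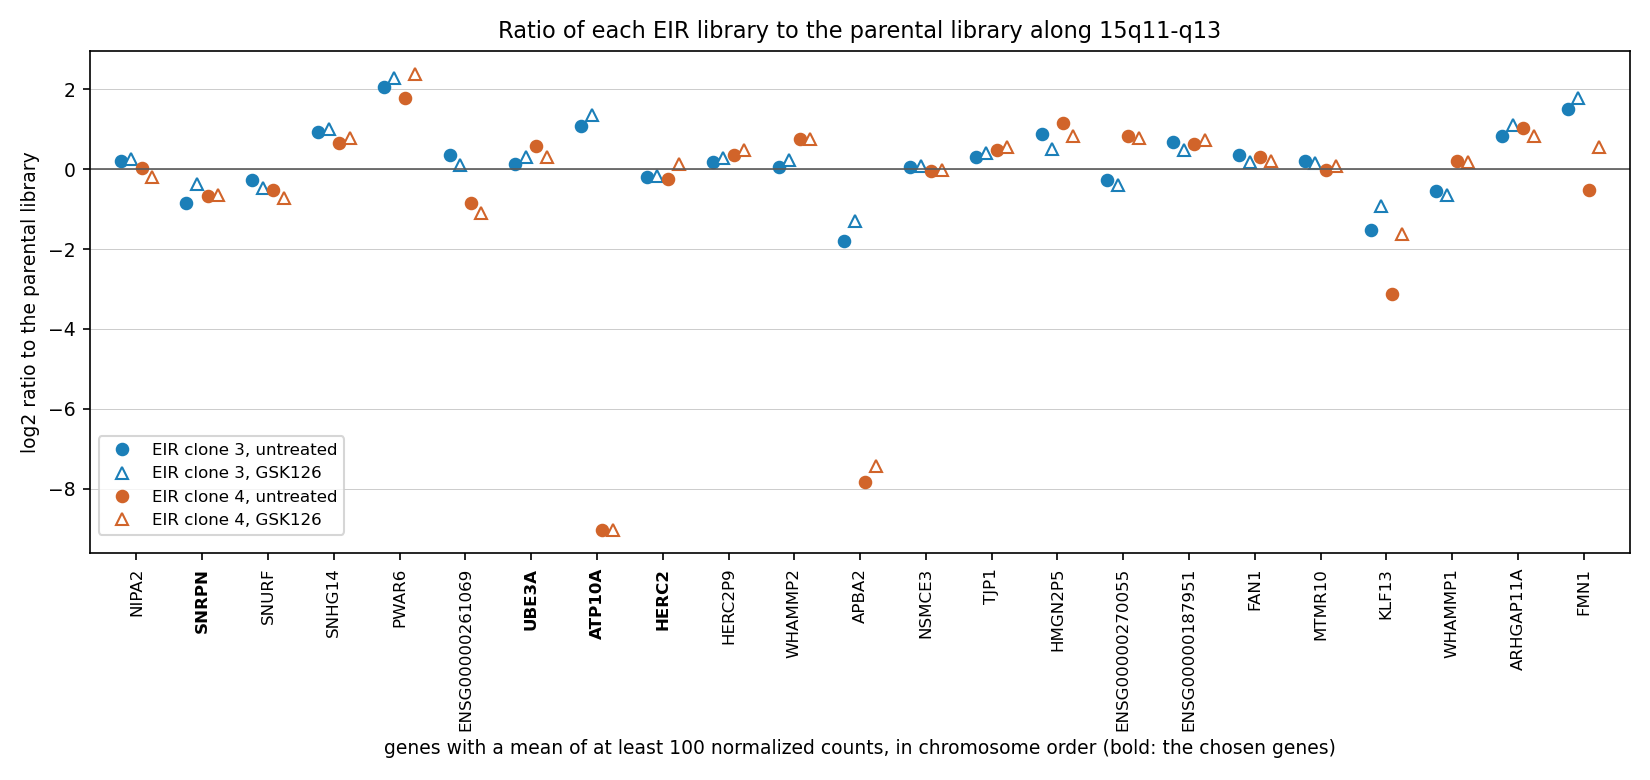
Log2 ratio of each EIR library to the parental library, computed as log2(normalized count + 0.5), for the genes averaging 100 or more normalized counts in chromosome order (bold: members; blue clone 3, orange clone 4; triangles GSK126-treated). ATP10A at -9.04 in clone 4 and above 1 in clone 3 is the widest gap between the clones among the genes drawn, followed by APBA2, and the UBE3A, SNRPN and HERC2 libraries lie within 1 of parental cells; the clone 4 value of ATP10A comes from a count of 0 and depends on the 0.5 added.

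SNHG14, PWAR6 and SNURF, of the paternally expressed SNRPN locus, lay on the same side of parental cells in both clones. ENSG00000261069 of the same locus lay above parental cells in clone 3 and below in clone 4. Its clone 3 difference was not called (DESeq2 adjusted p 0.505). SNHG14, the long host RNA of the SNORD116 snoRNAs, had 1568 normalized counts in parental cells and 3018, 3129, 2456 and 2709 in untreated and treated clone 3 and untreated and treated clone 4. It was called higher in clone 3 (log2 difference 0.97, SE 0.18, adjusted p 1.228e-06) and in clone 4 (0.72, SE 0.18, adjusted p 0.000461) under every alternative run. PWAR6, a non-coding RNA of the same cluster, had 84.6 in parental cells and 292 to 448 in EIR cells, with differences of 2.18 (SE 0.38, adjusted p 1.369e-07) and 2.13 (SE 0.38, adjusted p 2.498e-07). After the GC adjustment the mean log2 differences of PWAR6 were 1.29 and 1.30, and those of SNHG14 0.79 and 0.56. SNURF, which shares its transcript with SNRPN, had 3266 in parental cells and 1998 to 2715 in EIR cells. It was called lower in clone 4 (-0.61, SE 0.19, adjusted p 0.00557), and the call was lost without either clone 3 library. SNRPN and SNURF were thus below parental cells in all EIR libraries and SNHG14 and PWAR6 above. No SNORD116 copy lay above parental cells in all 4 EIR libraries, as their host SNHG14 did. Of 22 with a row, 12 were below parental cells in all 4 EIR libraries and 0 above, with at most 126 counts in any library. Several, such as SNORD116-1, had at most 10 counts in every library. How many of all genes lay below the 1 parental library in this way was not counted, so nothing is read from the 12. SNORD116-3 had 126 counts in parental cells, 82 and 72 in untreated and treated clone 3, and 52 and 46 in clone 4. The copies are near-identical and not independent. SNORD116-9 had the same counts as SNORD116-3, SNORD116-7 as SNORD116-5 and SNORD116-19 as SNORD116-17. DESeq2 called 0 of the 22 in any comparison, with 2 lower in clone 4 than in parental cells at an unadjusted p under 0.05 and 3 by edgeR. Pooled EIR cells had 2 lower at an unadjusted p and 0 by edgeR, and the other comparisons had 0 by either.

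Among the listed genes outside the imprinted cluster, NIPA2, NSMCE3, FAN1 and MTMR10 were called by DESeq2 in no comparison, with the 5 libraries between 1545 and 2133 normalized counts for NIPA2 and 626 and 683 for NSMCE3. ARHGAP11A had 3414 in parental cells and 6038 to 7324 in EIR cells, and was called higher in both clones (0.98, SE 0.18, adjusted p 1.762e-06, and 0.93, SE 0.18, adjusted p 5.238e-06). After the GC adjustment its mean log2 differences were 0.60 and 0.53. TJP1, the tight-junction protein ZO-1, had 4443 in parental cells and 5544 to 6567 in EIR cells, called in clone 4 (0.52, SE 0.16, adjusted p 0.00588) and not in clone 3 (adjusted p 0.0783); the TJP1 call in clone 4 was lost without either clone 3 library. Of the 24 listed region genes covered here that had a row and were no members, 17 had an adjusted p in clone 3 against parental cells, with 4 called higher and 1 lower (14.7% and 14.5% of all genes). In clone 4 against parental cells 16 had one, with 4 higher and 3 lower (14.7% and 18.3% of all genes).

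The profiles most like those of ATP10A and UBE3A were sought among all 11564 genes, by the Euclidean distance of centred log2 values over the 5 libraries. EPCAM, the epithelial adhesion molecule described above, was nearest to ATP10A (distance 1.79). PBDC1, on chromosome X, followed with 357 counts in parental cells, 398 and 427 in clone 3 and 1 and 0 in clone 4 (1.86). GALNT13, a glycosyltransferase on chromosome 2, had 59 counts in parental cells, 659 and 737 in clone 3 and 0 in both libraries of clone 4 (1.97). For UBE3A, TMPO (0.064) and ENOPH1 (0.066) were near, after ENSG00000262944, which matched no symbol (0.061). The distances for ATP10A depend on the 0.5 added to counts of 0.

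The relatives of the members lay elsewhere in the genome. Of 15 other P4-ATPases and CDC50 subunits with a row, 13 had an adjusted p in clone 4 against clone 3. DESeq2 called 1 higher and 2 lower in clone 4, and edgeR 1 higher and 3 lower. Over all genes, DESeq2 called 3.3% higher and 6.52% lower in that comparison. The counts of this and the following families were not tested against these shares. ATP9A had 10372 normalized counts in parental cells, 3075 and 2635 in clone 3 and 5396 and 5718 in clone 4 (log2 difference 0.96, SE 0.18, adjusted p 1.713e-06). ATP8B1 had 38.3, then 188 and 231, then 71.2 and 99.4 in the same order (-1.31, SE 0.40, adjusted p 0.0157), and ATP8B2 had 1261, then 1142 and 1212, then 682 and 644 (-0.83, SE 0.21, adjusted p 0.00187). None of these 3 genes was at 0 in clone 4. Of the 5 other HERC ligases, HERC3 was higher (0.94) and HERC5 (-1.69) and HERC6 (-1.56) lower in clone 4. Of 7 other type II MAGE genes, relatives of NDN and MAGEL2, 2 were lower, MAGED4 (-1.11) and MAGED4B (-0.84), which are near-identical copies. Of 4 other NIPA-like transporters, 1 was lower and none higher (0 higher also at an unadjusted p and by edgeR). The 7 Sm core proteins, the 11 partners of MAGEL2 and the WASH complex, and the 10 GABA-A receptor subunits elsewhere had 0 called by DESeq2 and 0 by edgeR. At an unadjusted p under 0.05, only the MAGEL2 and WASH partners had any (1 higher and 2 lower). Of 25 imprinted genes elsewhere with a row, 19 had an adjusted p. DESeq2 called 4 higher and 3 lower in clone 4, and edgeR 3 higher and 4 lower. Among the DESeq2 calls were TFPI2 (1.15) and H19 (2.68) higher and GRB10 (-1.48) and GNAS (-0.93) lower (adjusted p from 8.804e-11 to 1.384e-06).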

How the data were processed

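RNA was sequenced from 5 libraries of TOV21G. The authors aligned reads with Bowtie2 to hg19 and deposited estimated counts per Ensembl gene from RSEM, rounded to whole numbers (version 1.2.3 in the submitters' processing notes). The study's methods name another RSEM version and also RPKM values, which were not used here. Whether counting used strand was not given in the sources used here. The table had 30476 genes, of which 29203 (95.8%) matched GENCODE 44 lifted to GRCh37, the source of symbols, positions, GC content and canonical starts. Results for some single genes are not reported here, and counts over the region's genes leave them out.

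The main test was the DESeq2 1.42.0 Wald test (R 4.3.3) on the counts as deposited, with median-of-ratios size factors (0.945 to 1.08), two-sided, at a Benjamini-Hochberg adjusted p under 0.05. Clone 4 was compared with clone 3 over 4 EIR libraries with treatment as covariate, each clone with parental cells over 5 libraries in 3 groups, and treated with untreated EIR cells without covariate. The clone number pairs treated and untreated libraries: their deviations from the group means correlated at 0.862 over 11564 genes. Log2 values were log2(normalized count + 0.5). The GC adjustment subtracted the median difference of genes within 1% GC. The DESeq2 and edgeR fits were checked on simulated counts for clone 4 against clone 3 and for GSK126 treatment. The comparisons with parental cells, the fits with a library left out and the replicate block were not simulated. The members and gene lists were chosen with earlier results of these data known. Named besides the members were listed region genes with a mean of at least 100, up to 4 called genes per family list, and the 3 nearest profiles. Alternatives were edgeR 4.0.16, TMM and total count scaling, a filter of 10 counts in 2 libraries, a pseudocount of 5, the GC adjustment, each EIR library left out, and the replicate block.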

Additional observations from a re-analysis of the deposited data

Results flagged for a closer look

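Among the region's genes averaging 100 or more normalized counts, some lay above the parental library in clone 3 and below it in clone 4. Both libraries of each clone did so for ATP10A, ENSG00000261069 and NSMCE3. How many of all genes did so was not counted. For ATP10A the mean log2 difference between clone 4 and clone 3 was -10.27, from 1.22 above parental cells in clone 3 and -9.04 in clone 4, where the count was 0. For ENSG00000261069 it was -1.21, from 0.23 and -0.98. For NSMCE3 it was -0.10, from 0.08 and -0.02, and these signs depended on the processing. DESeq2 called ENSG00000261069 lower in clone 4 than in parental cells (-0.97, SE 0.23, adjusted p 0.000206). It did not call this gene in clone 3 (0.24, SE 0.23, adjusted p 0.505). For ATP10A the same values chose the gene. WHAMMP1 and ENSG00000270055 went the other way, below the parental library in both clone 3 libraries and above it in both of clone 4. Their mean log2 differences in clone 3 and clone 4 were -0.60 and 0.19, and -0.32 and 0.81. DESeq2 called neither in any comparison, and both were named after their values were seen. The clone 4 difference of WHAMMP1 turned negative after the GC adjustment (-0.40). The opposite direction as such was not tested.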

How the results depend on the processing

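Of 594 alternative values for the members and the other named or expressed genes of the region, 534 moved by less than the spread between libraries and 55 by more, and 5 reversed a difference that exceeded that spread. The GC adjustment reversed UBE3A (-0.10), HERC2 (0.043) and NSMCE3 (-0.12) in clone 3 and WHAMMP1 (-0.40) in clone 4. Total count scaling reversed NSMCE3 in clone 4 (0.058). That scaling raised the clone 4 differences from parental cells by 0.08, and by less for genes at or near 0. Another 26 values, 11 of them of members, changed the sign of a difference smaller than the spread, among them HERC2 in clone 4 (0.18 after the GC adjustment, 0.03 with total counts, 0.14 without its untreated library). The values with 1 EIR library left out, 54 for each library, all counted among the 534. With 2 libraries per clone this was fixed in advance, so the label is no check of those values. ATP10A kept its direction in both clones under every alternative, with a clone difference of -10.27 at a pseudocount of 0.5 and -6.95 at 5, since clone 4 was at 0. Leaving out 1 EIR library at a time gave 831 to 2800 genes for clone 4 against clone 3 (1738 with all), 1983 to 5023 for clone 3 against parental cells (4925), 3339 to 4623 for clone 4 against parental cells (5368) and 1 to 25 for GSK126 treatment (1). The first count fell by more than 1.5 times without untreated clone 3 (875) or treated clone 3 (831) and rose without untreated clone 4 (2800). The second fell without untreated (2309) or treated clone 3 (1983), and the third without untreated (3339) or treated clone 3 (3341). With 1 library left in a clone, that library is assumed to vary like the others. The fits of clone 4 against clone 3 with a library left out also dropped the treatment covariate. Dropping only the covariate, with all 4 EIR libraries, gave 2541 genes. The counts for that comparison thus do not show the effect of the library alone. The treatment count was 25 without untreated clone 3, and 4 without untreated clone 4 or treated clone 3. For pooled EIR against parental cells edgeR called 1746 (650 higher, 1096 lower) where DESeq2 called 4157 (2014 higher, 2143 lower). For GSK126 treatment edgeR called 0 and DESeq2 with the replicate block 4, and the block in edgeR, an alternative chosen after seeing the data, called 1. The sums with SNURF and with HERC2 pseudogenes were also chosen after seeing the data. The cause of these differences was not tested. Depth limits NDN, GABRA5 and GABRG3, which had at most 4 counts in any library.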
